A study of Mus musculus with 8 samples.

Results

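Collagen, laminin and basement membrane genes were followed in mouse haematopoietic precursor cells in which the transcription factor SOX7 was switched on with doxycycline. The members were all probe sets with exactly 1 gene symbol in the platform annotation that named a collagen chain or a laminin chain, or that named Nid1, Nid2, Hspg2, Agrn, Sparc or Fn1. This gave 52 genes of 14683 with such a probe set, namely 39 collagen genes, 7 laminin genes and the 6 genes listed by name, and each had 1 probe set of 16348 on the array. A further 10 genes of the same families, 5 of them laminin chains, were not analysed here.

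The 8 arrays held total RNA from 4 groups of 2 samples: with and without doxycycline for 12 h, and with and without doxycycline for 24 h. All groups came from iSOX7, an embryonic stem cell line derived from Ainv18, so the cells without doxycycline carried the inducible Sox7 gene as well. FLK1+ cells were taken from embryoid bodies at day 3, kept in blast culture for 3 days and sorted as CD41+ and CD34- before the treatment began. Cells given doxycycline without the transgene were not analysed here, and the labels do not state whether the 2 samples of a group were separate cultures. The p-values therefore rest on a spread between samples that may be technical.

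Basement membranes are thin matrix sheets under epithelia and around blood vessels. Laminins, which are trimers of an alpha, a beta and a gamma chain, polymerise on the cell surface, and collagen IV forms a covalent network beside them. Nidogens and the heparan sulphate proteoglycans perlecan and agrin tie the sheets together. Endothelial cells deposit such a membrane as vessels form, whereas fibrillar collagens such as types I and III are mainly products of mesenchymal cells.

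Values are log2 expression levels, so that a difference of 1 is a 2-fold change. A gene is said to have risen or fallen when its adjusted p in limma was under 0.05 over all 16348 probe sets. Sox7 itself had 10.96 and 10.82 in the 12 h +DOX arrays, against 7.17 and 6.82 in the -DOX arrays, and 10.65 and 10.57 in the 24 h +DOX arrays, against 6.96 and 6.84 in the -DOX arrays. Arrays of a group correlated with r from 0.983 to 0.991, and the lowest was the pair of 24 h arrays without doxycycline. The sorting marker Itga2b, which encodes CD41, averaged 10.29 over all arrays. Cd34, whose protein was absent at the sort before treatment, averaged 10.07. With doxycycline Itga2b differed by -0.705 at 12 h and 0.18 at 24 h, and Cd34 by -0.43 and -0.28. Kdr, which encodes FLK1, differed by 0.975 and 1.775. None of these differences passed at a single time.

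The collagen IV genes Col4a1 and Col4a2 were the members that rose at both times. They lie side by side on mouse chromosome 8 and are transcribed in opposite directions. Their start regions from RefSeq (build GRCm38.p6) are shown because the pair moved together. The window of Col4a1 is chr8:11312777-11313076 on the minus strand, and that of Col4a2 is chr8:11312555-11312854 on the plus strand. Capitals mark the 78 bases that both windows hold, read on opposite strands.
Col4a1: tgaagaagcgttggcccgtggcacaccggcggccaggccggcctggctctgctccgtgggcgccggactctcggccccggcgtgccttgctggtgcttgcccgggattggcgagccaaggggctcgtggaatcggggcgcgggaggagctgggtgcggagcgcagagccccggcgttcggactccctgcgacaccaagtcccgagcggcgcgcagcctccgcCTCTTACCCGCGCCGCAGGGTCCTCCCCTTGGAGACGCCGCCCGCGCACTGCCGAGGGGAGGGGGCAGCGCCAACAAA
Col4a2: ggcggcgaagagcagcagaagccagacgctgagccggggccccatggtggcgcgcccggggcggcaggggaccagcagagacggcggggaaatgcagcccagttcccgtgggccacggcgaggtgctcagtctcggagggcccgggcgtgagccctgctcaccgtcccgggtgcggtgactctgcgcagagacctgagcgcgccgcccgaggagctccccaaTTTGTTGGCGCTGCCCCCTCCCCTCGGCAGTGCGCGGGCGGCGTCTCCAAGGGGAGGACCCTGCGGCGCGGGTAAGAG
The annotated starts of the 2 genes lie 21 bases apart, and the windows were 74.0% and 73.7% G or C, against a median of 52.7% over 32851 start windows of the mouse genome. On either strand, neither window held ACAAT or ACAAAG, 2 spellings of a SOX factor site. Neither held AGGAAG or CGGAAG, 2 spellings of an ETS factor site. Other spellings were not searched. The bases ACAA, held in both SOX spellings, occur in the 78 bases that both windows hold. The bases GGAA, held in both ETS spellings, occur in each window. Whether a SOX or ETS factor binds there was not tested. Of all windows, 31%, 18.7%, 35.4% and 16.9% held the 4 motifs searched. Of the 43 windows of the members, 2.33%, 14%, 39.5% and 2.33% held them. The windows were not matched for G or C content. Among the 6 windows of the 5 genes that rose at 12 h or 24 h, AGGAAG occurred in 1, at Col18a1, and the other 3 motifs in 0.

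Col4a1 and Col4a2 encode the alpha 1 and alpha 2 chains, which form the collagen IV of nearly every basement membrane. At 12 h Col4a1 had 9.61 and 9.92 in the +DOX arrays, against 8.64 and 8.66 in the -DOX arrays. Col4a2 had 9.27 and 9.59 in the +DOX arrays at 12 h, against 8.46 and 8.32 in the -DOX arrays. Every array with doxycycline was above every array without it for both genes. The difference was 1.11 ± 0.17 (SE, 2 samples per group) for Col4a1 and 1.04 ± 0.17 for Col4a2 (limma adjusted p = 0.0363 and 0.046). At 24 h Col4a1 had 9.63 and 9.91 with doxycycline, against 8.47 and 8.30 without it. Col4a2 had 9.43 and 9.67 with doxycycline at 24 h, against 8.23 and 8.03 without it. The groups were again apart, and the differences were 1.39 ± 0.17 (2.61-fold) and 1.42 ± 0.17 (2.68-fold), each with a limma adjusted p of 0.0152. In bulk RNA, here and in all results that follow, more or fewer cells of a type and more or less RNA per cell cannot be told apart.

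**Figure D1:**
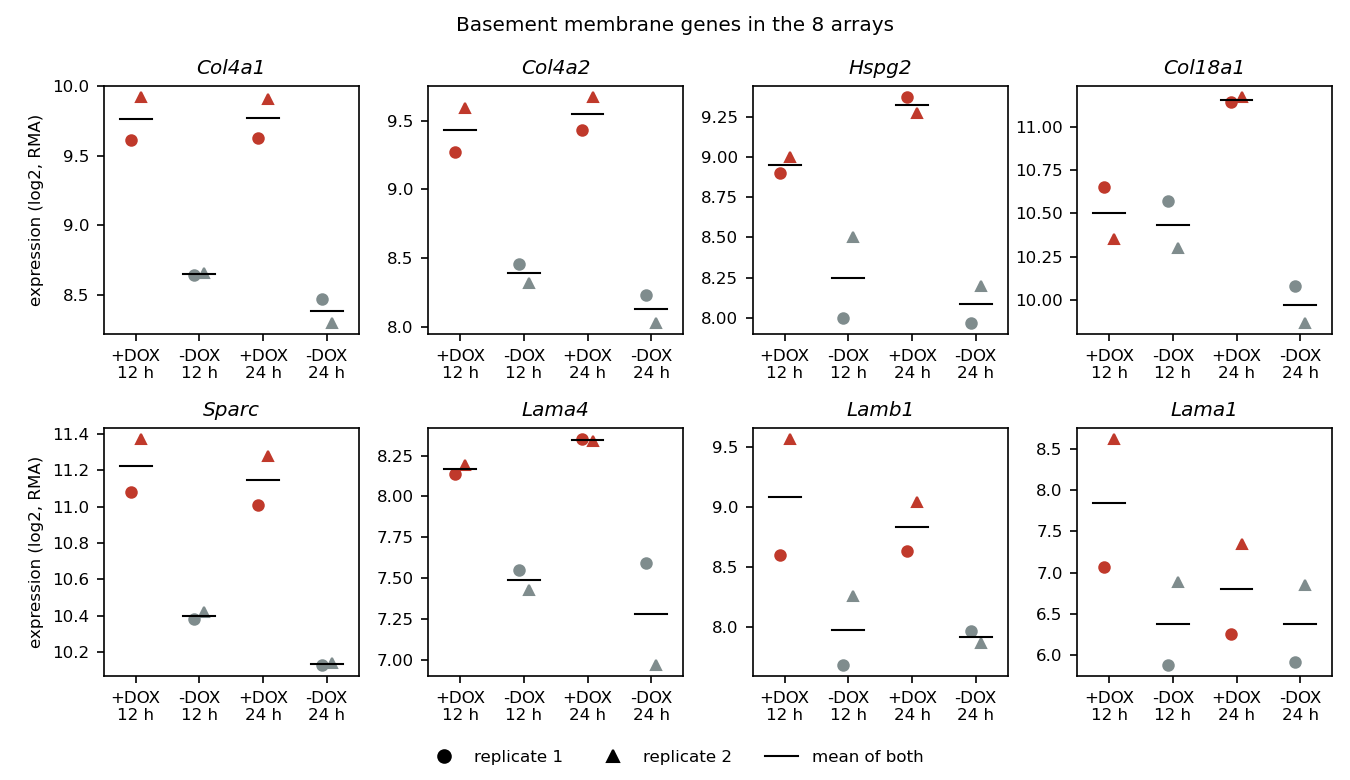
Log2 expression level (RMA) of 8 members in each array, by group. Circles are replicate 1, triangles replicate 2 and lines the mean of both. For Col4a1, Col4a2, Sparc, Hspg2, Lama4 and Lamb1 both +DOX arrays lie above both -DOX arrays at 12 h and at 24 h, for Col18a1 at 24 h only, and Lama1 is higher in replicate 2 in every group.

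The other 4 collagen IV chains form the networks of specialised membranes such as those of the kidney glomerulus. Col4a3, Col4a4, Col4a5 and Col4a6 differed by 0.14, 0.11, 0.02 and 0.08 at 12 h and by -0.04, -0.06, -0.08 and -0.08 at 24 h, and none passed. Like Col4a1 and Col4a2, Col4a3 neighbours Col4a4, and Col4a5 neighbours Col4a6, among protein-coding genes of RefSeq. Of the 3 neighbouring collagen IV pairs, the genes of 1 pair rose.

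At 12 h 2 of the 52 members rose and 0 fell, which is 3.85% of the members against 0.593% of all probe sets that rose, and 8 members had an unadjusted p under 0.05, against 8.85% of all probe sets. At 24 h 5 rose and 0 fell, or 9.62% of the members against 0.887% of all probe sets, and 9 had an unadjusted p under 0.05, against 11.4% of all probe sets. Lower calls made up 0.33% and 0.551% of all probe sets at 12 h and 24 h. The median difference over the 52 members was 0.09 at 12 h and 0.02 at 24 h, against -0.005 and -0.01 over all probe sets. A fitted difference above 0 was found for 38 members (73.1%) at 12 h, against 48.7% of all probe sets, and for 28 members (53.8%) at 24 h, against 47.5% of all probe sets. Both +DOX arrays lay above both -DOX arrays for 17 members (32.7%) at 12 h, against 21.7% of all probe sets, and for 12 members (23.1%) at 24 h, against 15.2%. Both lay below for 2 members at 12 h and 0 at 24 h, against 22.3% and 16.2% of all probe sets. The 2 genes that rose at both times were 3.85% of the members, against 0.373% of all probe sets. Calls at one time depended on single arrays: without any 1 array, 0 or 1 member rose at 12 h, Col4a1 being that member without either 24 h -DOX array. At 24 h 0 members rose without either 24 h +DOX array or without the second 24 h -DOX array, 3 without either 12 h +DOX array, and 4 without any other array. Such fits leave 1 sample in a group and assume that it varies like the others. With the replicate number as a block 4 members rose at 12 h and 8 at 24 h, against 1.72% and 2.39% of all probe sets, and 0 fell, against 1.14% and 1.75%.

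Of the linkers and proteoglycans, Hspg2 rose at 24 h. It encodes perlecan, the large heparan sulphate proteoglycan of vascular basement membranes. Hspg2 had 9.37 and 9.27 with doxycycline at 24 h, against 7.97 and 8.2 without it, a difference of 1.24 ± 0.19 (2.35-fold, limma adjusted p = 0.0301). At 12 h it had 8.9 and 9 with doxycycline, against 8 and 8.5 without it (difference 0.70 ± 0.19, limma adjusted p = 0.216). The groups were apart at both times, but the 12 h difference did not pass.

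Agrn, which encodes agrin, the proteoglycan that also clusters receptors at the neuromuscular junction, had 8.05 and 8.12 with doxycycline at 12 h, against 8.17 and 8.34 without it. At 24 h it had 8.54 and 8.44 with doxycycline, against 7.85 and 7.84 without it. The arrays with doxycycline were thus the lower ones at 12 h and the higher ones at 24 h. The differences were -0.17 ± 0.13 and 0.65 ± 0.13 (limma adjusted p = 0.889 and 0.0743), and neither passed. Nid1 and Nid2, the nidogens that bridge laminin and collagen IV, differed by -0.01 ± 0.27 and 0.24 ± 0.25 at 12 h and by 0.04 ± 0.27 and 0.31 ± 0.25 at 24 h, with no call.

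The multiplexin Col18a1 rose at 24 h. Its protein is a basement membrane collagen whose end fragment, endostatin, inhibits angiogenesis. Col18a1 had 11.14 and 11.17 with doxycycline at 24 h, against 10.08 and 9.87 without it, a difference of 1.18 ± 0.17 (2.27-fold, limma adjusted p = 0.024). At 12 h its 10.65 and 10.35 with doxycycline interleaved with 10.57 and 10.30 without it (difference 0.07 ± 0.17, limma adjusted p = 0.995). Col15a1, the related collagen of muscle and vessel membranes, differed by 0.13 ± 0.15 at 12 h and 0.07 ± 0.15 at 24 h.

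Sparc and Fn1 encode secreted glycoproteins: SPARC binds collagen, and fibronectin is assembled into fibrils by integrins. Sparc had 11.01 and 11.28 with doxycycline at 24 h, against 10.13 and 10.14 without it, and rose by 1.01 ± 0.16 (2.01-fold, limma adjusted p = 0.0334). At 12 h Sparc had 11.08 and 11.37 with doxycycline, against 10.38 and 10.42 without it (difference 0.83 ± 0.16, limma adjusted p = 0.0783). Its groups were apart at both times. Fn1 had 12.54 and 12.69 with doxycycline at 24 h, against 11.90 and 11.78 without it (difference 0.78 ± 0.16, limma adjusted p = 0.0745). At 12 h Fn1 had 12.69 and 12.50 with doxycycline, against 12.66 and 12.36 without it, and the groups overlapped.

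**Figure D2:**
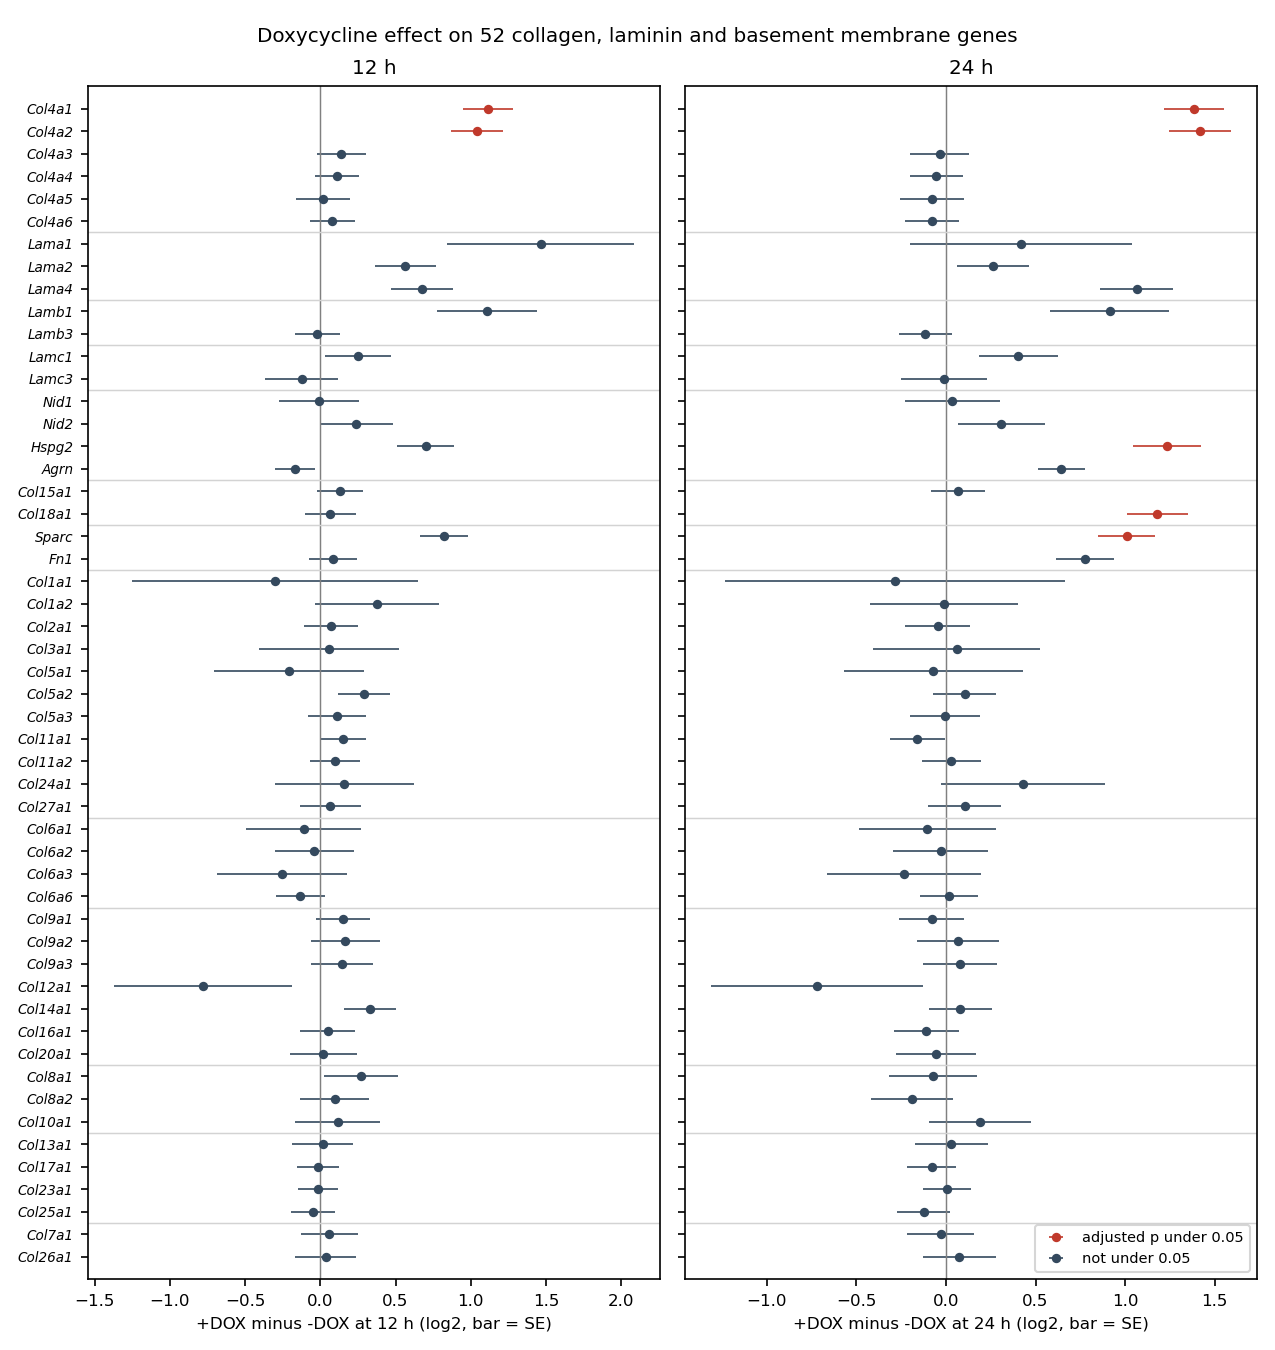
Difference in log2 level between +DOX and -DOX arrays at 12 h (left) and 24 h (right) for all 52 genes, ordered by class with grey lines between classes; bars are the standard error of the fit, and red marks an adjusted p under 0.05. The red points are Col4a1 and Col4a2 at 12 h, and Col4a1, Col4a2, Hspg2, Col18a1 and Sparc at 24 h. The 31 collagens of classes other than collagen IV and the multiplexins have none.

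Of the 7 laminin chains 0 passed at 12 h or at 24 h, with 4 at an unadjusted p under 0.05 at 12 h and 2 at 24 h, against 8.85% and 11.4% of all probe sets. Lama4, the alpha chain of endothelial laminin, had 8.14 and 8.19 with doxycycline at 12 h, against 7.55 and 7.43 without it. At 24 h Lama4 had 8.35 and 8.34 with doxycycline, against 7.59 and 6.97 without it. Its differences were 0.68 ± 0.20 and 1.06 ± 0.20 (limma adjusted p = 0.282 and 0.0595). Lamb1, the beta chain shared by many laminins, had 8.60 and 9.56 with doxycycline at 12 h, against 7.69 and 8.26 without it, and 8.63 and 9.04 with doxycycline at 24 h, against 7.97 and 7.87 without it. The groups were apart at both times for Lama4 and Lamb1, with the pair of Lamb1 arrays given doxycycline at 12 h lying far from each other. Lamb1 differed by 1.11 ± 0.33 and 0.92 ± 0.33 (limma adjusted p = 0.275 and 0.326).

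Lama1, the alpha chain of the laminin of early embryonic membranes, had 7.07 and 8.62 with doxycycline at 12 h, against 5.88 and 6.88 without it. At 24 h it had 6.25 and 7.35 with doxycycline, against 5.91 and 6.85 without it. The groups were apart at 12 h and overlapped at 24 h, and in each group the replicate 2 array was at least 0.94 above the replicate 1 array. The differences of 1.47 ± 0.62 and 0.42 ± 0.62 did not pass (limma adjusted p = 0.552 and 0.937). Lama2, the alpha chain of muscle laminin, had 4.23 and 4.73 with doxycycline at 12 h, against 3.81 and 4.02 without it, and 4.10 and 4.35 with doxycycline at 24 h, against 3.88 and 4.04 without it. Its groups were apart at both times, but its differences of 0.57 ± 0.20 and 0.27 ± 0.20 did not pass (limma adjusted p = 0.41 and 0.777). The gamma 1 chain gene Lamc1, whose product is in most laminin trimers, differed by 0.25 ± 0.22 and 0.41 ± 0.22. Lamb3, a chain of epithelial laminin, and Lamc3 differed by at most 0.13 in size at either time.

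A model over both times compared the 4 arrays with doxycycline with the 4 without it, with time as a further term. In it 6 members rose and 0 fell, or 11.5% of the members against 2.61% of all probe sets that rose, while 1.81% of all probe sets fell. They were Col4a1 by 1.25 ± 0.12, Col4a2 by 1.23 ± 0.13, Hspg2 by 0.97 ± 0.16, Sparc by 0.92 ± 0.11, Lama4 by 0.87 ± 0.15 and Lamb1 by 1.01 ± 0.22 (limma adjusted p = 0.00128, 0.00198, 0.0119, 0.00322, 0.0158 and 0.043). Each of the 6 was higher with doxycycline in 4 of 4 same-numbered pairs of samples. With the replicate number as a block, Lama1 also rose, by 0.94 ± 0.22 (limma adjusted p = 0.0458, against 0.381 without the block), and Col12a1 fell by 0.75 ± 0.16 (limma adjusted p = 0.0296, against 0.443 without it). The blocked model called 4.28% of all probe sets higher and 3.25% lower. Without any 1 array 4 to 6 members rose, and Col4a1, Col4a2, Hspg2 and Sparc did so in all 8 such fits. Lamb1 passed in 1 of the 8 and Lama4 in 6 of the 8.

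Read pair by pair, 11 of the 19 collagen IV, laminin, linker, proteoglycan and multiplexin genes were higher with doxycycline in all 4 same-numbered pairs. Over all 52 members the count was 14, or 26.9%, against 14.4% of all probe sets. They included genes with small differences, such as Lamc1 with 0.17 and 0.33 in the 12 h pairs and 0.31 and 0.50 in the 24 h pairs, and Nid2 with 0.30 and 0.18 at 12 h and 0.33 and 0.29 at 24 h. Lower in all 4 pairs were 3 members, Col1a1, Col5a1 and Col12a1, or 5.77% against 13.2% of all probe sets.

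The change between 12 h and 24 h was then compared with and without doxycycline. For the difference between the 24 h and the 12 h effect 0 members and 0 of all probe sets passed in limma, while 3 members and 3.09% of all probe sets had an unadjusted p under 0.05. The 3 were Col18a1, Agrn and Fn1, whose effects differed by 1.12 ± 0.24, 0.82 ± 0.19 and 0.69 ± 0.23 (each with a limma adjusted p of 1). From 12 h to 24 h with doxycycline 0 members passed in limma and 2 had an unadjusted p under 0.05, Col18a1 with 0.66 and Agrn with 0.41, against 6.83% of all probe sets. From 12 h to 24 h without doxycycline 0 members passed in limma, and the members with an unadjusted p under 0.05 were Col18a1, Agrn and Fn1, with differences of -0.46 for Col18a1, -0.41 for Agrn and -0.67 for Fn1, against 7.46% of all probe sets. These counts of 2 and 3 of 52 members lie below the shares of all probe sets. Of all probe sets 0.159% rose and 0.0245% fell with time in the presence of doxycycline, and 0.141% rose and 0.00612% fell in its absence.

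The 31 collagens of classes other than collagen IV and the multiplexins formed the larger part of the members. They are called collagens outside the basement membrane here, a name by class that was not checked chain by chain. Of the 31 genes 0 passed in limma at 12 h, at 24 h or over both times without the block. The 11 members with an unadjusted p under 0.05 at 12 h or 24 h held 0 of the 31. Their median difference was 0.06 at 12 h and -0.03 at 24 h. The 11 fibrillar collagens, which build the banded fibrils of connective tissue, differed by -0.30 to 0.38 at 12 h and by -0.29 to 0.43 at 24 h. The 4 collagen VI genes, which form beaded filaments, differed by -0.26 to -0.04 at 12 h and by -0.24 to 0.02 at 24 h. Among the 7 fibril-associated collagens Col12a1 had 4.90 and 6.07 with doxycycline at 12 h, against 5.47 and 7.06 without it, and 5.38 and 5.93 with doxycycline at 24 h, against 5.93 and 6.82 without it. The groups overlapped at 12 h and met at 5.93 at 24 h. Col14a1, which coats collagen fibrils, had 4.14 and 4.44 with doxycycline at 12 h, against 3.88 and 4.04 without it, with groups apart (difference 0.33 ± 0.18, limma adjusted p = 0.715). The fibrillar Col5a2 had 5.57 and 5.75 with doxycycline at 12 h, against 5.34 and 5.40 without it (difference 0.29 ± 0.18, limma adjusted p = 0.791). Neither differed by more than 0.11 at 24 h. The 3 short-chain, 4 transmembrane and 2 remaining collagens, among them the anchoring fibril collagen Col7a1, differed by no more than 0.27 in size at either time.

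Between the 2 arrays of each group 5 of these 31 collagens and the laminin gene Lama1 differed in limma. Col1a1, the main chain of type I collagen, had 7.49 and 8.90 with doxycycline at 12 h, against 7.57 and 9.42 without it, and 7.43 and 9.28 with doxycycline at 24 h, against 7.59 and 9.69 without it. The second value, from replicate 2, was the higher one in every group. In a model with a term for the replicate number, replicate 2 exceeded replicate 1 for Col1a1 by 1.80 ± 0.12 (limma adjusted p = 0.00537). The same held for Lama1 by 1.15 ± 0.12, Col12a1 by 1.05 ± 0.17, Col5a1 by 0.91 ± 0.11, Col3a1 by 0.84 ± 0.12 and Col6a1 by 0.69 ± 0.09 (limma adjusted p = 0.0137, 0.0379, 0.018, 0.0285 and 0.0232). Col3a1 and Col5a1 encode chains of collagens that assemble into fibrils with type I. Col5a1 had 7.06 and 7.79 with doxycycline at 12 h, against 7.28 and 7.99 without it, and 7.14 and 8.18 with doxycycline at 24 h, against 7.15 and 8.31 without it. Col3a1 had 6.78 and 7.55 with doxycycline at 12 h, against 6.76 and 7.46 without it, and 7 and 8.22 with doxycycline at 24 h, against 7.22 and 7.88 without it. Col6a1 had 5.59 and 6.27 with doxycycline at 12 h, against 5.73 and 6.35 without it, and 5.73 and 6.6 with doxycycline at 24 h, against 5.97 and 6.57 without it. For each of the 3 genes the arrays split by replicate and the groups with and without doxycycline overlapped at both times. These 6 genes were 11.5% of the members, and 0.856% of all probe sets were higher in replicate 2 and 0.71% lower. A fitted difference above 0 was found for 49 members (94.2%), against 43.2% of all probe sets. Col6a3 and Col1a2 differed by 0.75 ± 0.13 and 0.71 ± 0.13 and did not pass (limma adjusted p = 0.0541 and 0.0585). Without either 12 h +DOX array 7 members passed, and without any other single array Col1a1 alone did.

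**Figure D3:**
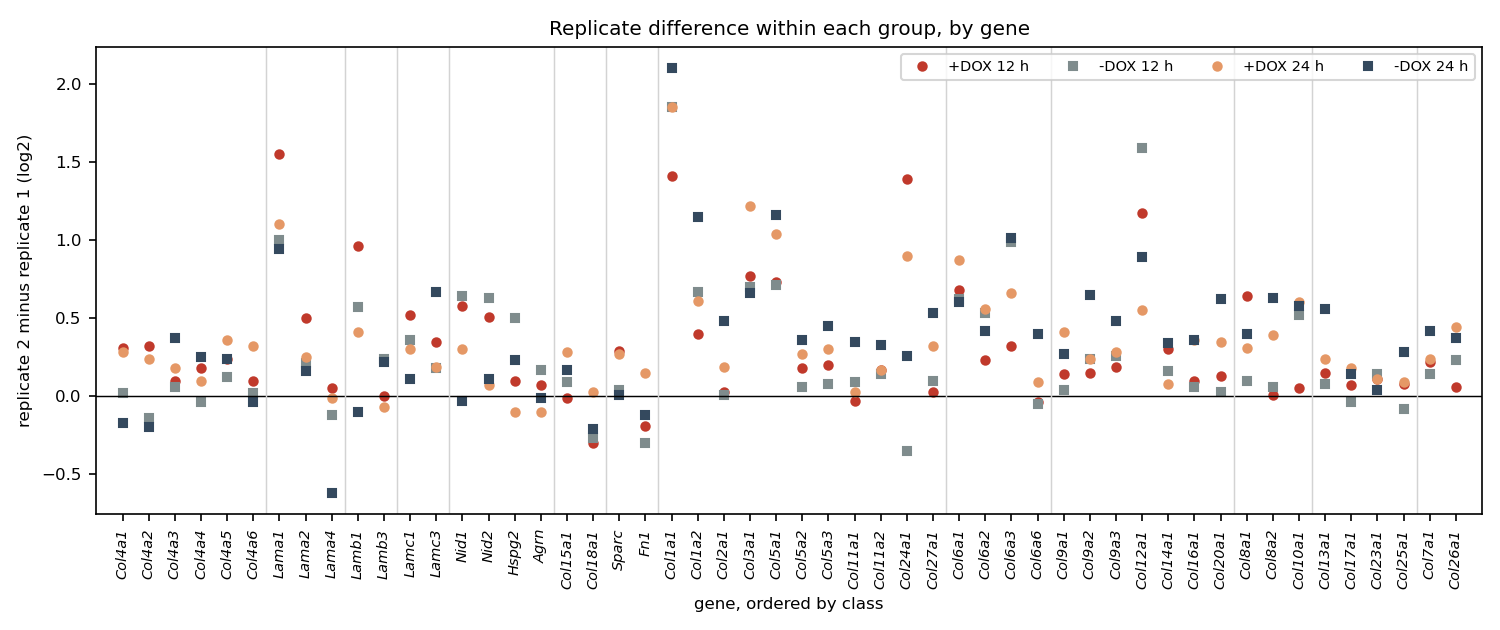
Difference in log2 level between replicate 2 and replicate 1 within each group, for all 52 genes ordered by class with grey lines between classes. Col1a1, Lama1, Col12a1, Col5a1, Col3a1 and Col6a1 have all 4 points well above 0, and 34 of the 52 genes have all 4 points above 0.

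Across the members, 34 of 52 (65.4%) were higher in replicate 2 in all 4 groups, against 11.9% of all probe sets, and 0 were lower in all 4 groups, against 22% of all probe sets. The 34 included 26 of the 31 collagens outside the basement membrane and 7 of the 19 basement membrane genes. With all probe sets cut by mean level into 3 bins of equal size, the share higher in replicate 2 in all 4 groups was 15.1% in the dimmest, 16.1% in the middle and 4.5% in the brightest bin. The members held 3 of 8, 27 of 32 and 4 of 12 such genes in those bins, so 15.4% of the members lay in the dimmest bin, against 33.3% of all probe sets. Many of these differences were small, with a median of 0.25 over the 52 members and -0.04 over all probe sets.

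Marker lists moved along both axes, and their part in the results above was not tested. The mean of 12 endothelial markers lay between 8.89 and 9.36 in the 12 h +DOX arrays, against 7.86 to 8.71 in the -DOX arrays, and between 9.08 and 9.50 in the 24 h +DOX arrays, against 7.48 to 8.55 in the -DOX arrays. Of these markers 0 passed at 12 h or 24 h in limma, with medians of 0.94 and 1.32. In the both-times model 5 rose, and with the replicate block 4 rose at 12 h, 7 at 24 h and 8 over both times. Cdh5, the endothelial cadherin, differed by 1.55 ± 0.38 and 2.02 ± 0.38 (limma adjusted p = 0.162 and 0.0571, and 0.0223 and 0.00795 with the block). Of 10 erythroid markers 6 fell at 12 h and 5 at 24 h, or 8 at each time with the replicate block, and the list mean lay between 9.46 and 9.68 in the 12 h +DOX arrays, against 10.55 to 10.72 in the -DOX arrays.

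Along the replicate axis, 6 of 12 mesenchyme and smooth muscle markers were higher in replicate 2 and 0 lower, with a median of 0.71. They included Postn, the matrix protein periostin, by 1.82 (limma adjusted p = 0.00222) and Acta2, smooth muscle actin, by 1.575 (limma adjusted p = 0.0054). The mean of this list ranged from 5.68 to 6.52 in the 12 h +DOX arrays, against 5.79 to 6.66 in the -DOX arrays, and from 5.65 to 6.60 in the 24 h +DOX arrays, against 5.92 to 6.65 in the -DOX arrays. Of 8 endoderm markers 3 were higher in replicate 2, Ttr by 1.24, Gata6 by 0.64 and Afp by 0.60 (limma adjusted p = 0.0172, 0.021 and 0.0285). With doxycycline 0 genes of the mesenchyme and endoderm lists passed in limma at 12 h or 24 h, and with the replicate block 1 of them, Postn, fell at each time (limma adjusted p = 0.0222 and 0.0101). In the both-times model 0 genes of these lists passed. With the block added to that model, Postn fell by 0.95 ± 0.09 (limma adjusted p = 0.00123). The endoderm marker Gata4 then rose by 0.68 ± 0.14 (limma adjusted p = 0.0265). Endothelial markers had a median of -0.58 and megakaryocyte markers of -0.90 between replicate 2 and replicate 1, with 2 lower calls in each list. With doxycycline 0 of 7 megakaryocyte markers passed in limma at either time, with medians of -0.55 and -0.36. Of 6 macrophage markers 0 passed at 12 h and 2 fell at 24 h, Cd14 and Csf1r, and 0 passed between the replicates. Mrc1, the macrophage mannose receptor, went the other way, with 1.01 ± 0.27 at 12 h and 1.21 ± 0.27 at 24 h (limma adjusted p = 0.204 and 0.0921). It rose in the both-times model by 1.11 ± 0.18 (limma adjusted p = 0.0129) and at both times with the replicate block (limma adjusted p = 0.0111 and 0.00512).

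**Figure D4:**
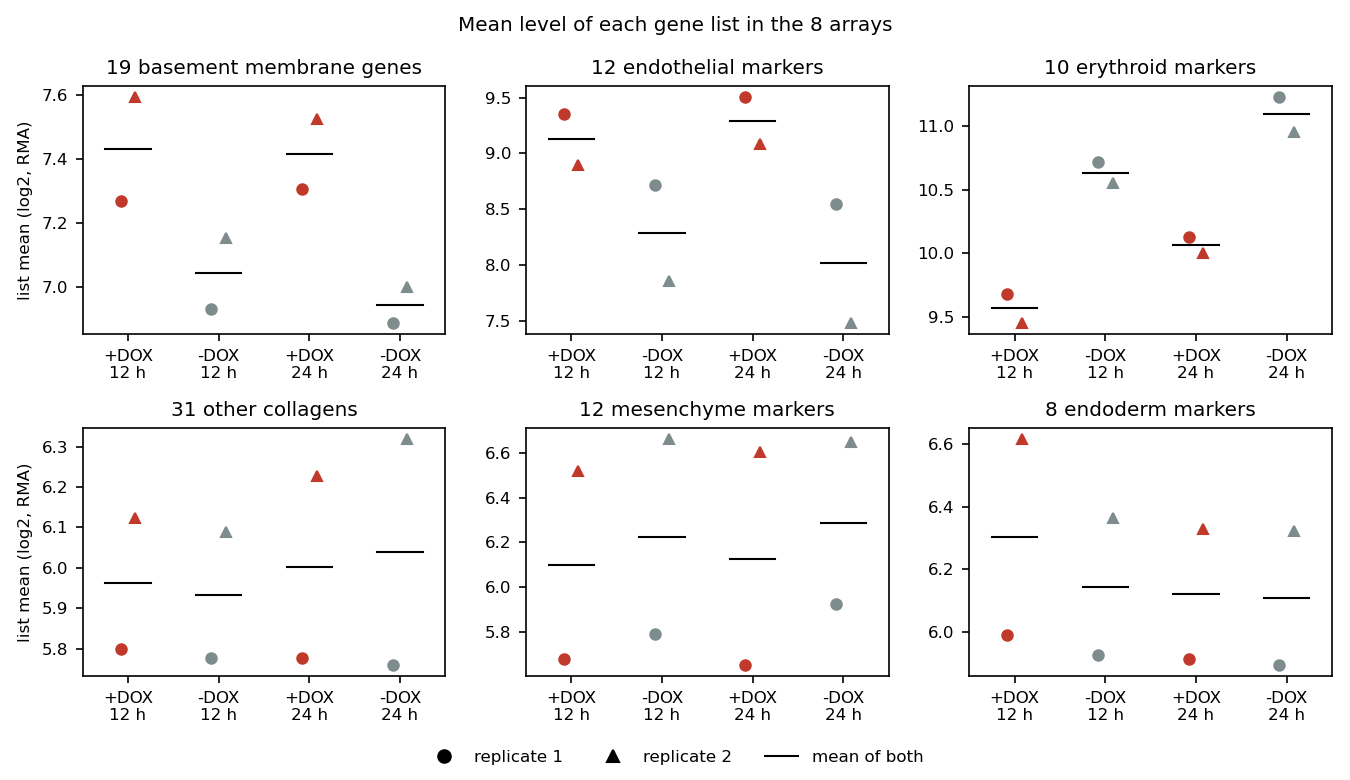
Mean log2 level of 6 gene lists in each array, by group; circles are replicate 1, triangles replicate 2 and lines the mean of both. The 19 basement membrane genes and the 12 endothelial markers lie higher and the 10 erythroid markers lower with doxycycline at both times, while the 31 other collagens, the mesenchyme markers and the endoderm markers split by replicate.

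Genes that make, bind or cut these matrix proteins were read from lists by role. Of 20 measured collagen maturation genes, which encode prolyl and lysyl hydroxylases, chaperones and cross-linking enzymes, 0 passed at 12 h or 24 h. A fitted difference above 0 was found for 12 of the 20 at 12 h and 18 at 24 h, against 48.7% and 47.5% of all probe sets, with medians of 0.07 and 0.36. P4ha1, a subunit of the collagen prolyl hydroxylase, had 9.75 and 9.78 with doxycycline at 12 h, against 9.02 and 9.07 without it (difference 0.72 ± 0.15, limma adjusted p = 0.0875). At 24 h P4ha1 differed by 0.52 ± 0.15 (limma adjusted p = 0.175). P4ha2, its relative, differed by 0.83 ± 0.34 at 12 h and 1.30 ± 0.34 at 24 h, Plod2, a lysyl hydroxylase, by 0.72 ± 0.24 and 0.87 ± 0.24, and Pcolce2, an enhancer of procollagen cleavage, by 1.19 ± 0.28 and 0.83 ± 0.28, none with a call at a single time. In the both-times model these 4 genes rose, P4ha1 by 0.62 ± 0.10, P4ha2 by 1.06 ± 0.24, Plod2 by 0.80 ± 0.16 and Pcolce2 by 1.01 ± 0.19 (limma adjusted p = 0.0119, 0.0464, 0.0288 and 0.0246). With the replicate block P4ha1 and Pcolce2 rose at 12 h, and P4ha2 and Pcolce2 at 24 h. From 12 h to 24 h without doxycycline P4ha1 differed by 1.085 ± 0.15 and P4ha2 by 1.72 ± 0.34. With doxycycline P4ha1 differed by 0.885 ± 0.15 and P4ha2 by 2.19 ± 0.34 over the same time. These time differences passed only with the block. Without doxycycline the limma adjusted p was 0.024 and 0.015, against 0.0604 and 0.159 without the block. With doxycycline it was 0.0457 and 0.00955, against 0.0917 and 0.0752 without the block.

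Of 15 matrix receptor genes 1 rose at each time. It was Itga2, the alpha 2 chain of a collagen-binding integrin of platelets, with 6.23 and 5.83 with doxycycline at 12 h, against 4.74 and 4.60 without it, and 6.12 and 5.76 with doxycycline at 24 h, against 4.95 and 4.57 without it. The groups were apart, and Itga2 rose by 1.36 ± 0.21 and 1.18 ± 0.21 (limma adjusted p = 0.0387 and 0.0496). The fibronectin receptor chain Itga5 differed by 0.72 ± 0.17 and 0.70 ± 0.17 without passing, and rose by 0.71 ± 0.11 in the both-times model (limma adjusted p = 0.00952). Of 18 protease and inhibitor genes Adamts1, a secreted metalloprotease that cleaves proteoglycans, rose at both times. It had 10.01 and 9.67 with doxycycline at 12 h, against 8.19 and 7.82 without it, and 9.71 and 9.45 with doxycycline at 24 h, against 8.25 and 7.73 without it. Adamts1 rose by 1.83 ± 0.23 and 1.59 ± 0.23 (limma adjusted p = 0.0228 and 0.025). Mmp14, a membrane-bound collagenase, differed by 0.43 ± 0.24 and 0.95 ± 0.24, and Timp3, a metalloprotease inhibitor held in the matrix, by -0.67 ± 0.46 and -1.15 ± 0.46, without a call. With the replicate block Mmp14 rose at 24 h (limma adjusted p = 0.0112).

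Of 15 other basement membrane glycoproteins 1 rose at 24 h and 0 at 12 h. It was Fstl1, a secreted relative of SPARC, with 9.37 and 9.68 with doxycycline at 24 h, against 8.49 and 8.70 without it. Fstl1 rose by 0.93 ± 0.16 at 24 h (limma adjusted p = 0.0438) and differed by 0.66 ± 0.16 at 12 h (limma adjusted p = 0.162), where it passed with the replicate block (limma adjusted p = 0.0416). Sparcl1, another relative of SPARC, differed by 0.24 ± 0.13 and 0.56 ± 0.13 with no call.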

How the data were processed

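Total RNA was measured on Affymetrix arrays, 1 sample per array. The authors deposited log2 expression levels, made with RMA in Affymetrix Power Tools per the submitters' processing notes. The build and the versions are not given in the sources used here. Array medians ran from 6.4 to 6.61. No detection calls were used, so background is unknown and precision is limited by the 8 arrays. Groups and replicate numbers came from the sample titles.

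The platform annotation gave 1 symbol to 14785 probe sets, several to 950 and none to 613. All probe sets entered a limma 3.58.1 fit (lmFit, eBayes, R 4.3.3) of 4 group means, with 4 residual and 3.44 prior degrees of freedom. Changes are log2 differences ± SE, with p-values adjusted by Benjamini-Hochberg over 16348 probe sets and no filter. The both-times model had terms for doxycycline and time, and the replicate model had terms for group and number. Deviations from group means correlated between same-numbered arrays with r from 0.298 to 0.428 over the 6 pairs of groups. Same-numbered arrays were therefore also read as 4 pairs. The both-times model held no term for the number, so its p-values are unpaired except where the replicate block is named.

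The members, classes and lists were chosen with earlier results of these data known. The rule for named genes gave array values for members that passed, for up to 3 others of a class and up to 8 between replicates by smallest p, and for up to 4 genes of each list; the text gives some of these by their differences only. Alternatives were quantile normalization, median centring, a trended or robust eBayes, a filter on the dimmest 33.3%, a fit to the best probe set of each gene, array weights, the replicate block, a fit to the compared groups alone, and omission of each array. The steps were tested on simulated data with independent noise in each array and no replicate effect. That test does not cover the deviations shared by same-numbered arrays. RefSeq start windows covered 38 of the 52 members.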

Additional observations from a re-analysis of the deposited data

Results flagged for a closer look

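Agrn was singled out because both doxycycline arrays lay below both arrays without doxycycline at 12 h and above them at 24 h. The effect at 24 h minus that at 12 h was 0.815 ± 0.19, and the test of this difference did not pass (limma adjusted p = 1, unadjusted p = 0.00304).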

How the results depend on the processing

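The count of members that rose at 12 h was 2 and lay between 0 and 4 under the 9 alternatives other than leaving out an array. It was 4 with array weights and 4 with the replicate block, and 0 when only the groups compared were fitted, a fit with fewer residual degrees of freedom. At 24 h the count of 5 became 8 without the dimmest probe sets, 8 with the replicate block, 2 with only the groups compared and 0 with array weights. The cause of the drop under array weights was not tested. Leaving out each array gave 0 to 1 at 12 h, 0 to 4 at 24 h, 4 to 6 over both times and 1 to 7 between the replicates. Over both times 5 to 7 members rose under the 8 alternatives, and with the replicate block 7 rose and 1 fell, 8 calls in all. The replicate count of 6 was 10 with array weights. No member fell at 12 h or 24 h under any of these alternatives. The replicate block added Sparc and Lama1 at 12 h and Lama4, Agrn and Fn1 at 24 h, and the blocked counts of the 3 comparisons involving time stayed at 0. No value of a called member changed sign. With no detection calls, low levels could not be told from background.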
